A study of Mus musculus with 6 samples.

Results

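Alveolar fluid and ion transport genes were followed in lung tissue of 6 wild type mice, 3 fed a high fat diet and 3 a control diet, with 1 Affymetrix expression array per mouse. The set holds 9 of the 18193 genes that have a probe set with no other symbol in the platform annotation: Scnn1a, Scnn1b and Scnn1g, which encode the subunits of the epithelial sodium channel, its ubiquitin ligase Nedd4l, the sodium pump subunit Atp1b1, the chloride channel Cftr, the sodium-potassium-chloride cotransporter Slc12a2, and the water channels Aqp1 and Aqp4. Its members are all probe sets that the platform annotation assigns to only 1 of these symbols, which gave 23 of the 45101 probe sets on the array. The strain, sex and age of the mice, the composition and length of the diets and the batch of each array were not given in the labels or files used here. Nothing in the labels says that mice were pooled, and no transgene or treatment other than diet is named for either group.

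The lung keeps its air spaces nearly dry by moving salt, and with it water, across the epithelium. Sodium enters epithelial cells from the air side through the epithelial sodium channel and leaves on the blood side through the sodium pump, a sodium-potassium ATPase whose beta subunit brings the catalytic alpha subunit to the membrane. Chloride moves through Cftr, the channel that is mutated in cystic fibrosis, and Slc12a2 (NKCC1) loads chloride into cells from the blood side, which feeds secretion. Aquaporins carry the water, Aqp1 mainly in capillary endothelium and mesothelium and Aqp4 in the basolateral membrane of airway epithelium. Aqp4 is also made by skeletal muscle.

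In high fat lungs the signals of Cftr, Slc12a2 and Atp1b1 were higher than in control lungs, by 2.01-fold, 1.5-fold and 1.46-fold, and those of the remaining genes did not pass the test in either direction. Signals are MAS5 intensities, a linear scale on which the authors' values have the same trimmed mean of 500 on every array, so signals are relative within an array and are not absolute amounts. A probe set was tested if its mean log2 signal reached the 40th percentile, a signal of 70.3, and 19 of the 23 did. A call is a limma p under 0.05 after Benjamini-Hochberg adjustment over all 27022 tested probe sets. Of the 19, 3 were called higher (15.8 percent) and 0 lower, 1 each for Cftr, Slc12a2 and Atp1b1. An unadjusted limma p under 0.05 was found for 5 of the 19, against 8394 of all 27022 tested probe sets, which is a slightly larger share. Over all probe sets tested, 12.9 percent were called, 4.63 percent higher and 8.27 percent lower. The share called in either direction was therefore near that of the whole array, and the share called higher was above it. With 1 probe set per gene, the brightest one tested, 3 of the 9 genes were called, all higher, against 6.75 percent of 12689 genes (4.56 percent higher and 2.2 percent lower). The median log2 difference, high fat minus control, was 0.27 over the 19 probe sets and -0.06 over all tested probe sets. At the same trimmed mean, the median signal was 113 to 129 on high fat arrays, against 143 to 150 on control arrays. The median difference over all probe sets was -0.10 with no filter and 0.005 with a 60th percentile filter, so it shifts with brightness. Of the 19, 15 also passed the 60th percentile filter. Of the 19 differences, 18 were positive, against 44.6 percent of all, but several of the 19 read the same gene. With 1 probe set per gene, 8 of the 9 differences were positive, against 56.4 percent of all genes, and the medians were 0.27 and 0.06. Under median centring of the arrays the median of all tested probe sets moved by 0.27, to 0.22, and that of the 19 moved to 0.54. This centring adds the same amount to every probe set, so the distance of 0.32 between these 2 probe set medians is fixed and says nothing about stability. The distance was 0.26 with quantile normalization and 0.26 with the 60th percentile filter. With 1 mouse left out it ran from 0.23 (without control mouse 1) to 0.38 (without high fat mouse 2).

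**Figure D1:**
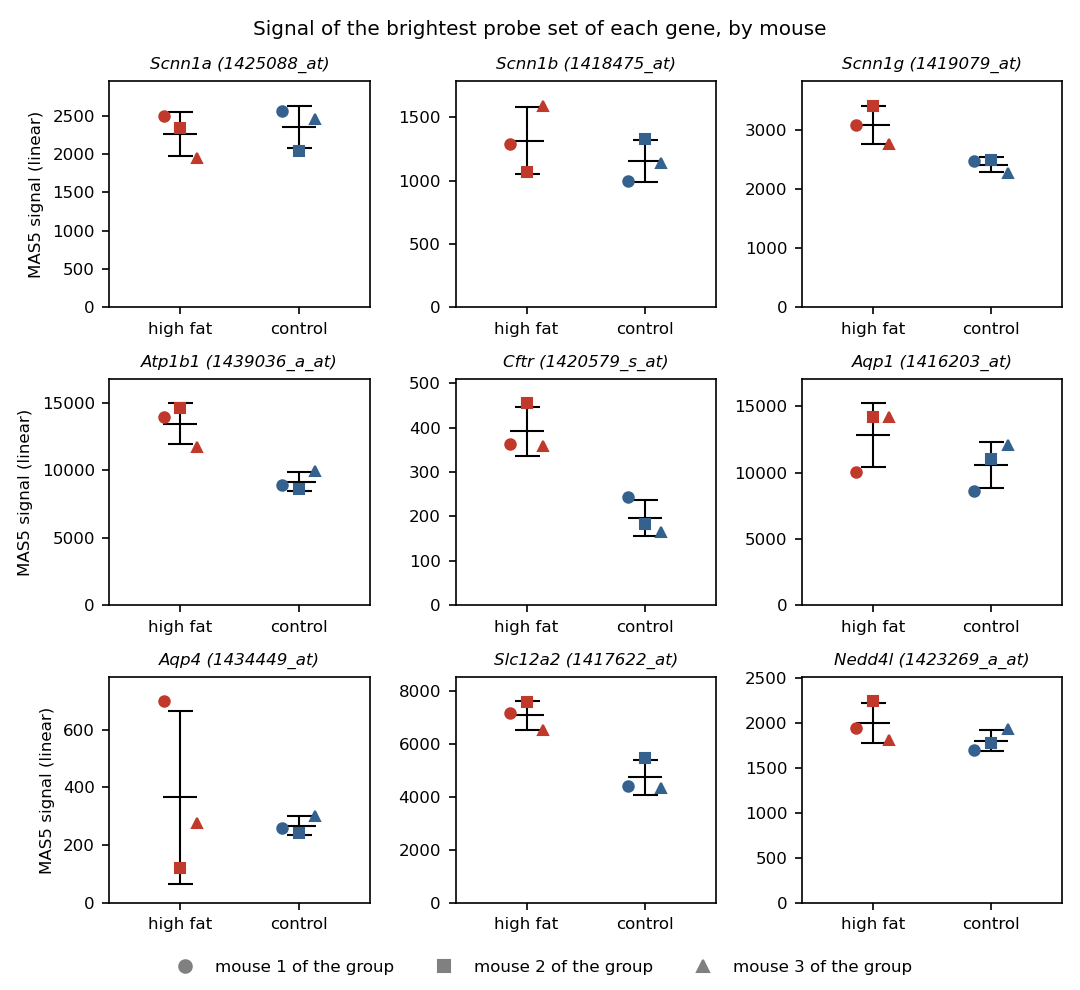
MAS5 signal on a linear axis from 0 for the brightest probe set of each of the 9 genes, with high fat mice on the left and control mice on the right of each panel; points are mice, and the wide and narrow bars give the mean and the SD over 3 mice. The groups do not overlap for Scnn1g, Atp1b1, Cftr and Slc12a2, and high fat mouse 1 stands far above the other mice for Aqp4, at 698.

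The data limit all of these statements in the same ways. Only 3 mice per group set the precision, and nothing in the labels gives a date or a batch. The 9 genes, the lists of related genes and the cell type markers were chosen with earlier results of these data known. A share of calls above that of all genes is therefore not independent evidence of a change in a list. For Gapdh, the 3′ control probe set divided by the 5′ one, a measure of RNA integrity, was 0.915 ± 0.0538 in high fat and 0.768 ± 0.0259 in control mice (SD, n = 3 each, exact permutation p = 0.1). That of b-Actin was 1.52 ± 0.0219 in high fat and 1.31 ± 0.122 in control mice (SD, n = 3 each, exact permutation p = 0.1, the lowest value possible with these group sizes). Probe sets of this array type lie near the 3′ end of transcripts, and the part of this difference in the results was not tested. Among the reference genes, the log2 difference was 0.14 for Actb, -0.28 for Hprt and -0.19 for Tbp, none of them called. For Hprt and Tbp, however, every high fat mouse was below every control mouse, as for 21.7 percent of all tested probe sets. Since lung tissue was measured in bulk, more cells of a type and more RNA per cell cannot be told apart.

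Cftr had signals of 362, 455 and 358 in high fat mice, against 243, 183 and 165 in control mice. Every high fat mouse was above every control mouse. The difference was 2.01-fold, or 1.00 on the log2 scale (95% interval 0.52 to 1.49, limma adjusted p = 0.0214). These signals came from probe set 1420579_s_at, and the suffix _s marks, in Affymetrix naming, a set whose probes can match transcripts of more than 1 gene. The other Cftr probe set, 1427767_a_at, gave signals of 1.01 to 19.9 in high fat mice and 1.24 to 23.0 in control mice, far below the filter, and was not tested. Cftr is thus measured here by a lone, fairly dim probe set. The difference was 0.89 to 1.17 on the log2 scale with 1 mouse left out, and it was called in 3 of these 6 fits, but not without control mouse 2 (adjusted p = 0.0758), control mouse 3 (0.0813) or high fat mouse 2 (0.0679).

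Slc12a2, the cotransporter that supplies chloride for secretion, had signals of 7143, 7562 and 6503 in high fat mice, against 4390.0, 5482 and 4322 in control mice, for its brightest probe set, 1417622_at. The groups did not overlap, and the difference was 1.5-fold (log2 0.59, 95% interval 0.29 to 0.88, limma adjusted p = 0.0247). A second probe set, 1417623_at, gave 1186, 1061 and 1093 in high fat mice, against 660.1, 944 and 681 in control mice. It showed a difference of nearly the same size (log2 0.57), again without overlap, and just missed the threshold (limma adjusted p = 0.0506). The third, 1448780_at, had a log2 difference of 0.27 (95% interval -0.10 to 0.64, limma adjusted p = 0.299), with overlapping groups. All 3 are drawn from the same source sequence in the platform annotation, so they are repeated readings of the same transcript region or neighbouring ones, not independent evidence. The call of 1417622_at held in 2 of 6 fits with 1 mouse left out and was lost without control mouse 1 (adjusted p = 0.0688), control mouse 3 (0.102), high fat mouse 1 (0.0521) or high fat mouse 2 (0.0698). It was also lost without an intensity trend (0.0613) and without both mice numbered 1 (0.104).

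Atp1b1, the beta subunit of the sodium pump, is read by 5 probe sets. The brightest, 1439036_a_at, had signals of 13956, 14611 and 11726 in high fat mice, against 8929, 8567 and 9970.5 in control mice. The groups were separate, with a difference of 1.46-fold (log2 0.55, 95% interval 0.25 to 0.85, limma adjusted p = 0.03). For 1418453_a_at the groups were also separate, at 5829.9, 5512 and 6018 in high fat mice and 5126, 4466 and 5358 in control mice, but the difference was smaller (log2 0.22) and was not called (limma adjusted p = 0.228). The remaining tested sets, 1423890_x_at and 1451152_a_at, overlapped between the groups, with log2 differences of 0.40 and 0.18 (limma adjusted p = 0.171 and 0.412). All 4 tested sets thus had a positive difference and 1 of them was called. The fifth, 1455949_at, had signals of 39.3 to 103 in high fat mice and 26.9 to 93.6 in control mice and was not tested. The call of 1439036_a_at was kept in 1 of 6 fits with 1 mouse left out, the fit without high fat mouse 3, and its adjusted p reached 0.0951 without control mouse 2. It was also lost with quantile normalization (0.0677), with no filter (0.0547) and without an intensity trend (0.0653).

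**Figure D2:**
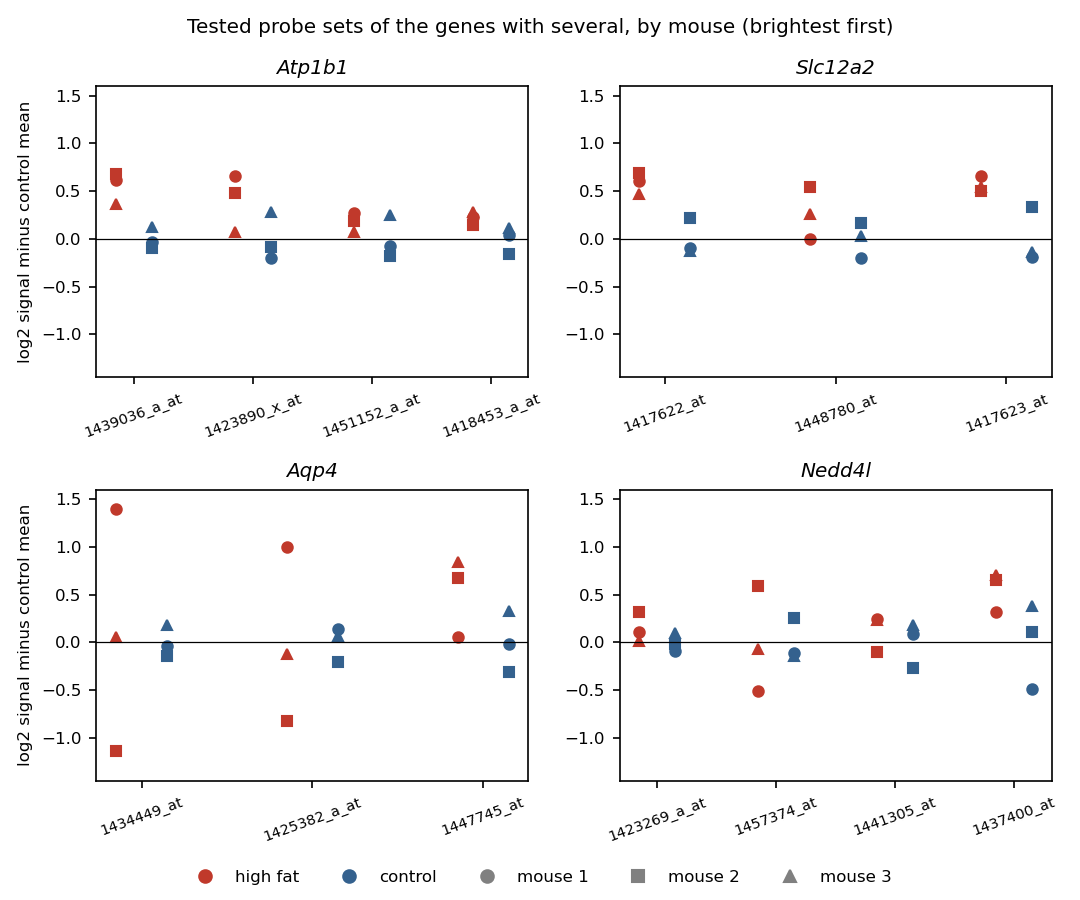
Log2 signal minus the control mean of the same probe set, for each mouse, in the 4 genes with several tested probe sets (ordered from bright to dim); red points are high fat mice, blue points control mice, and the shape gives the mouse. Differences in Atp1b1 and Slc12a2 point the same way in every probe set, from 0.18 to 0.59, while high fat mice 1 and 2 lie at opposite ends for the brighter Aqp4 probe sets.

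Promoters are shown for Cftr and Atp1b1, as called genes whose start has an entry in the RefSeq promoter table (build GRCm38.p6), which matched 5 of the 9 genes, namely Scnn1b, Scnn1g, Atp1b1, Cftr and Aqp1. Each line gives the 250 bases before the annotated start, 5′ to 3′ on the gene's strand. Capitals mark the letters of motifs searched on both strands: the GC box bound by SP1 (GGGCGG), the CCAAT box (CCAAT), the TATA box (TATAAA) and its variant TATATA, and the cAMP response element (TGACGTCA). Cftr is at chr6:18170437-18170686 on the + strand and Atp1b1 at chr1:164458356-164458605 on the - strand.
Cftr: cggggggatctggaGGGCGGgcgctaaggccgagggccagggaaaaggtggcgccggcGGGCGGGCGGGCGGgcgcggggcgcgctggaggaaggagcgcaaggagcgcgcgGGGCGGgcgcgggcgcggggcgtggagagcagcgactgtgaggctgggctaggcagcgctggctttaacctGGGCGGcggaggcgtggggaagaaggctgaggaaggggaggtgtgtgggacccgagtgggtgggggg
Atp1b1: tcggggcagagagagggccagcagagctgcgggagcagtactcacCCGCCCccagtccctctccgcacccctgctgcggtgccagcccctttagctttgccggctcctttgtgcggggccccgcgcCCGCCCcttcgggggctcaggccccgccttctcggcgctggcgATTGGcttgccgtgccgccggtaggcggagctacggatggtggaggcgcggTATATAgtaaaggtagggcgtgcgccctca
The Cftr window was 76.4 percent G and C and held 6 GC boxes, 3 of them overlapping one another, with none of the other motifs. The Atp1b1 window was 70.4 percent G and C, with 2 GC boxes, a CCAAT box 81 bases and a TATATA 30 bases before the start. The variant TATATA was added to the search after these sequences had been read. The GC box is found in 32.7 percent of 32851 RefSeq promoters over the same length, CCAAT in 33.8 percent, TATAAA in 12.4 percent, TATATA in 5.25 percent and the cAMP element in 1.55 percent. The windows of Scnn1b, Scnn1g and Aqp1, none of them called, also held 1 or 2 GC boxes each. A match or its absence is a description of these letters and was not tied to the array signals.

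The subunits of the epithelial sodium channel were not called, and their signals differed by different amounts between the diets. Scnn1g, the gamma subunit, had signals of 3083, 3413 and 2762 in high fat mice, against 2474, 2495 and 2273 in control mice. Every high fat mouse was above every control mouse, and the difference was 1.27-fold (log2 0.35, 95% interval 0.08 to 0.62, limma adjusted p = 0.0824). Scnn1a, the alpha subunit on which channel assembly depends, had signals of 2503, 2339 and 1948 in high fat mice, against 2568, 2044 and 2457 in control mice. The groups overlapped fully and the log2 difference was -0.06 (95% interval -0.38 to 0.26, limma adjusted p = 0.808), with a positive sign under median centring (0.22). Scnn1b, the beta subunit, had signals of 1291, 1066 and 1591 in high fat mice, against 996 to 1327 in control mice, again with overlap (log2 0.18, 95% interval -0.21 to 0.57, limma adjusted p = 0.515). These intervals allow changes of about the size seen for Atp1b1 in Scnn1b, and do not for Scnn1a at this scaling.

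A ratio of probe sets within an array does not depend on how the array was scaled, so the subunits were also set against each other, a comparison chosen after the values had been seen. The log2 ratio of Scnn1g to Scnn1a was 0.30, 0.54 and 0.50 in high fat mice, against -0.05, 0.29 and -0.11 in control mice. The groups did not overlap, with a mean difference of 0.41 (exact permutation p = 0.1, the smallest possible, and 0.3 adjusted over the 3 pairs of subunits). The other pairs overlapped, with differences of 0.17 for Scnn1g to Scnn1b (exact permutation p = 0.7) and 0.24 for Scnn1b to Scnn1a (exact permutation p = 0.6). Such ratios could at most show unequal change between probe sets, not which of them changed. With 0.1 as the smallest possible exact permutation p, no pair could pass 0.05 here.

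Nedd4l, the ligase that marks the sodium channel for removal from the membrane, was not called with any of its probe sets. Its brightest, 1423269_a_at, had signals of 1937, 2239 and 1812 in high fat mice, against 1693, 1778 and 1926 in control mice. The groups overlapped, and the log2 difference was 0.15 (95% interval -0.13 to 0.42, limma adjusted p = 0.448). The other 3 tested sets had differences of 0.00 to 0.56. The largest, 0.56 for 1437400_at, came from a dim set with signals of 158 to 207 in high fat mice and 90.6 to 165 in control mice (limma adjusted p = 0.22). The remaining 2 sets, 1423270_at and 1456044_at, had means under the filter and were not tested.

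The water channels differed from each other in how they varied. Aqp1 was bright, with signals of 10036, 14218 and 14177 in high fat mice, against 8628, 11032 and 12057 in control mice. In each group mouse 1 was the lowest, the groups overlapped, and the difference was 1.21-fold (log2 0.27, 95% interval -0.14 to 0.68, limma adjusted p = 0.341). Of the cell types that make Aqp1, the endothelial markers had a summed signal of 41337, 42996 and 53074 in high fat mice, against 49294, 57849 and 58671 in control mice. Mesothelial markers had 12455 to 18101 in high fat mice, against 7894 to 8620 in control mice. Of 10 endothelial markers 2 were called lower and 0 higher, and of 7 mesothelial markers 4 were called higher and 0 lower, against 4.56 percent higher and 2.2 percent lower over all genes. The part of these cells in the Aqp1 signal was not tested.

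Aqp4 did not differ between the diets beyond the spread of the mice, and that spread was wide in high fat lungs. Its brightest probe set, 1434449_at, had signals of 698, 121 and 277 in high fat mice, against 259, 240.4 and 303 in control mice. High fat mouse 1 had the highest and high fat mouse 2 the lowest signal of all 6 mice, while the control mice lay close together. A second set, 1425382_a_at, showed the same order, at 447, 127 and 206 in high fat mice, against 247, 195 and 234 in control mice. The log2 differences were 0.10 (95% interval -1.08 to 1.29) and 0.01 (95% interval -0.90 to 0.93), with limma adjusted p = 0.915 and 0.985. Without high fat mouse 1 they turned to -0.54 and -0.48, and 1425382_a_at also turned negative without control mouse 2 (-0.087), so neither sign is settled by these mice. The third set, 1447745_at, at 68.6 to 119 in high fat mice and 53.2 to 82.9 in control mice, did not share this pattern (log2 0.53, limma adjusted p = 0.353).

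Transcripts of airway secretory cells and of muscle also varied between mice. Club and airway secretory markers, 9 in all, had a summed signal of 305155, 211068 and 249927 in high fat mice. In control mice it was 150921, 275536 and 206224. Control mouse 2, with the highest of these control sums, had the lowest control signals of the 2 brighter Aqp4 sets. The summed signal of 8 skeletal muscle markers, such as Acta1 and Ckm, was 19054, 1336 and 1521 in high fat mice, against 61332, 610.4 and 3389 in control mice. That of 9 cardiac markers was 165043, 44843 and 67105 in high fat mice, against 35243, 21117 and 47992 in control mice. High fat mouse 1 had the highest sum of its group in each of these lists. Control mouse 1, with the most skeletal muscle signal of all mice, had Aqp4 signals of 259 for 1434449_at, between those of the other control mice, and 247 for 1425382_a_at, above both of them. The part of airway cells and that of muscle tissue in the Aqp4 signals were not tested.

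**Figure D3:**
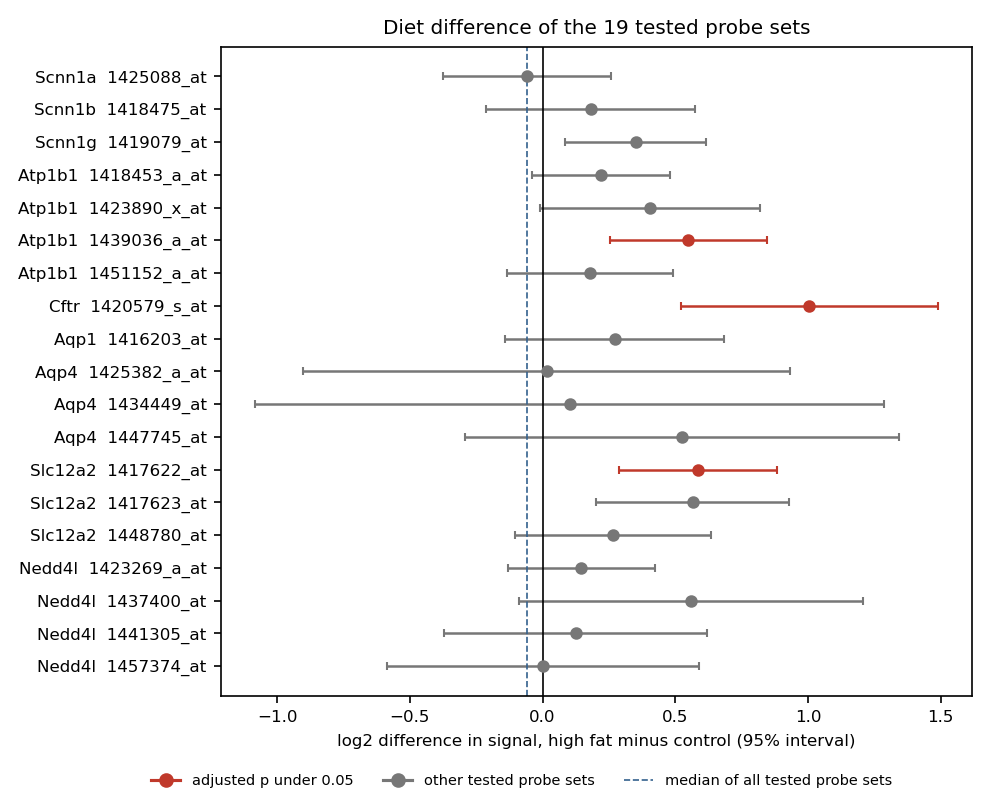
Log2 difference in signal, high fat minus control, of the 19 tested probe sets with its 95% interval from the limma fit; red marks an adjusted p under 0.05 and the dashed line the median of all tested probe sets, -0.06. All but the Scnn1a probe set lie above 0, 3 are called, and the Aqp4 intervals are the widest of the 19.

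Over the 19 probe sets, 6 had every high fat mouse above every control mouse (31.6 percent, against 14.6 percent of all tested probe sets) and 0 had every high fat mouse below (against 21.7 percent of all). The 6 were 2 of Atp1b1, 2 of Slc12a2 and 1 each of Cftr and Scnn1g. The number of the 19 called was 0 without control mouse 3 or without high fat mouse 2, 1 without control mouse 1 or high fat mouse 1, 2 without control mouse 2, and 3 without high fat mouse 3. It was 1 without both mice numbered 1, which had the most skeletal muscle signal in their groups. Calls over all probe sets also fell with 1 mouse left out, from 3486 to between 724 (without control mouse 3) and 3298 (without high fat mouse 3). The fits with 1 mouse left out have equal numbers of mice, so the spread between them goes with which mouse was left out. The part of having fewer mice in the fall from 3486 was not tested. No probe set of the 19 was called lower in any of these fits.

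Some cell type markers also differed between the diets, and all counts of called markers stand against 4.56 percent higher and 2.2 percent lower over all genes. The summed signal of 8 pan-epithelial markers was 23455 to 28626 in high fat mice, against 19228 to 19965 in control mice, and 2 of the 8 (Krt8 and Cdh1) were called higher and 0 lower. Of the others, Elf3, Krt18 and Epcam had log2 differences of 0.55, 0.50 and 0.34, Ehf one of 0.10, and Krt19 and Nkx2-1 differences of -0.08 and -0.07. That of 8 ciliated cell markers was 19226 to 27627 in high fat mice, against 13509 to 14493 in control mice, with 2 called higher. Markers of alveolar type II cells (202276 to 228199 in high fat, 157764 to 236909 in control mice) and of alveolar type I cells (128995 to 141218 in high fat, 118552 to 162241 in control mice) overlapped between the diets, with 0 of 9 type II markers called in either direction and, of 10 type I markers, 0 called higher and 1 lower. Markers of other cells differed at least as much. Of 7 tested adipocyte markers 6 were called higher (summed signal 23171 to 33732 in high fat, 2457 to 6067 in control mice), and of 9 smooth muscle and pericyte markers 4 were (37171 to 63655 in high fat, 24446 to 28170 in control mice). Of 8 macrophage and neutrophil markers 4 were called lower (4161 to 5852 in high fat, 8558 to 17689 in control mice), of 8 B and T lymphocyte markers 3 (2271 to 3960 in high fat, 5031 to 7017 in control mice), and of 3 tested erythroid markers 2 (3026 to 4868 in high fat, 6599 to 10221 in control mice). The part of these cells in the signals of the transport genes was not tested. Kidney tubule markers, listed as a check for tissue that should be absent, were below the filter for 4 of the 5 named by the annotation. No marker was at 0, since every MAS5 signal is above 0.

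Set against the pan-epithelial markers of the same array, a scaling chosen after the data had been seen, Cftr kept its call over probe sets and the others did not. This scaling adds the same -0.33 to every log2 difference, so the order of the differences is fixed and Cftr, the largest of the 19, stays the largest. It therefore cannot show which genes changed apart from the epithelial markers. Cftr was then 1.6-fold higher in high fat mice (log2 0.68, limma adjusted p = 0.0431), still without overlap, at 0.181, 0.233 and 0.203 times the geometric mean of the markers in high fat mice, against 0.149, 0.124 and 0.113 times in control mice. The differences of Slc12a2 and Atp1b1 shrank to 0.26 and 0.22 on the log2 scale (limma adjusted p = 0.241 and 0.311), that of Scnn1g to 0.02 (adjusted p = 0.912), and Scnn1a stood at -0.39 (adjusted p = 0.0664). On this scaling the median of all tested probe sets was -0.38, that of the 19 was -0.06, and 8 of the 19 differences were positive. With 1 probe set per gene, 0 of the 9 genes were called on this scaling.

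**Figure D4:**
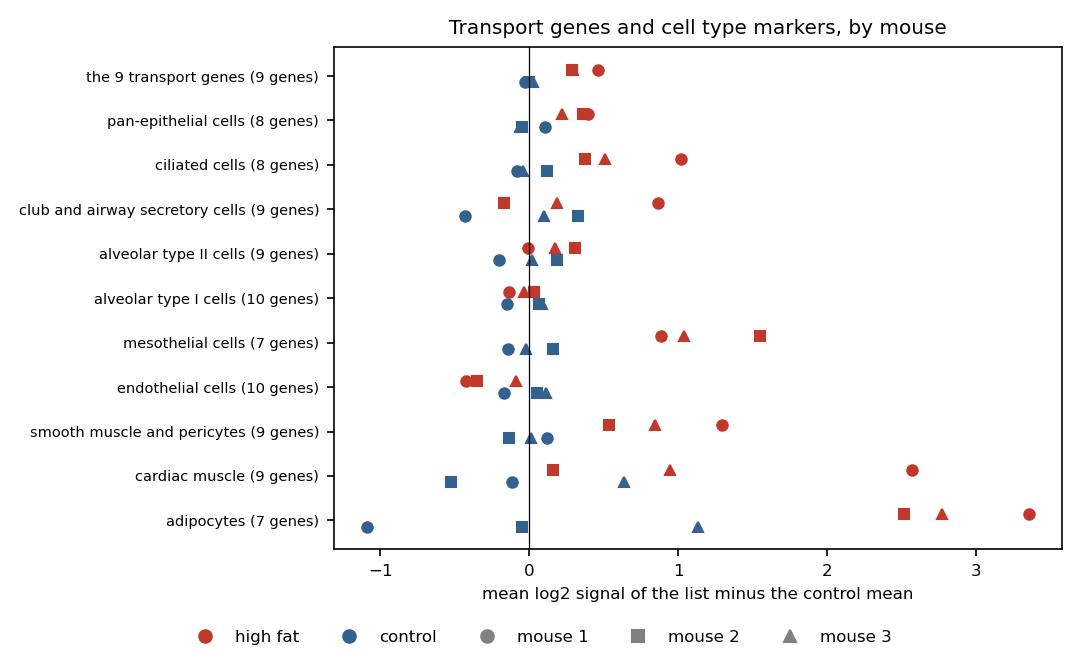
Mean log2 signal of the tested genes of a list minus its mean over control mice, for each mouse; red points are high fat mice, blue points control mice, and the shape gives the mouse. High fat mice lie above control mice for the 9 transport genes (0.29 to 0.46, against -0.03 to 0.03), for pan-epithelial, ciliated, mesothelial and smooth muscle markers and for adipocyte markers, and they overlap with control mice for alveolar type I and type II markers.

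Among other genes that handle salt and water in epithelia, some regulators, chloride transporters and pump subunits were called, each by its brightest probe set and against 6.75 percent of all genes. For these related genes p was adjusted over the 12689 genes tested, not over probe sets, also in the fits with 1 mouse left out. With that adjustment Cftr, Slc12a2 and Atp1b1 were each called in 1 of 6 such fits. Their highest limma adjusted p was 0.107, 0.137 and 0.125. Of 19 regulators and activating proteases of the sodium channel, 2 were higher and 1 lower (median log2 difference 0.22, against 0.06 over all genes). The proteases St14 (matriptase) and Prss8 (prostasin), which cleave and activate the channel, rose. St14 had signals of 893, 899.9 and 816 in high fat mice, against 619, 451 and 502 in control mice, and was 1.67-fold higher (limma adjusted p = 0.0279). Prss8 had signals of 2095, 1974 and 1643 in high fat mice, against 1219, 1147 and 1356 in control mice, and was 1.53-fold higher (limma adjusted p = 0.0322). Nr3c1, the glucocorticoid receptor, which drives transcription of channel subunits, fell to 0.625 times the control level (2647, 3759 and 3747 in high fat mice, 4503, 5918 and 5728 in control mice, limma adjusted p = 0.0498), and all 4 of its other tested probe sets had the same sign. Groups were separate for all 3 called genes. With 1 mouse left out, St14 and Prss8 were each called in 1 of 6 fits and Nr3c1 in 0 (highest adjusted p 0.16, for Nr3c1). Sgk1 stood at 0.612 times the control level, with every high fat mouse below every control mouse. It was not called over genes (limma adjusted p = 0.062), but its limma p adjusted over probe sets was 0.0448.

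Of 8 tested sodium pump subunits and FXYD proteins, which tune the pump, 2 were higher and 1 lower (median 0.54). Atp1b3, another beta subunit, fell to 0.678 times the control level, with signals of 4629, 5253 and 5604 in high fat mice, against 7945, 7632 and 7207 in control mice (limma adjusted p = 0.0284), opposite in sign to Atp1b1. Fxyd1 (phospholemman), abundant in heart and muscle, rose 1.49-fold, with signals of 4062, 3160.0 and 3309 in high fat mice, against 2368, 2077 and 2632 in control mice (limma adjusted p = 0.0461). Cardiac marker signal was also highest in high fat mouse 1, and its part in the Fxyd1 signal was not tested. Fxyd2, the gamma subunit known from kidney, rose 2.43-fold but was dim, with 161, 128 and 133 in high fat mice, against 56.4, 47.2 and 70.8 in control mice (limma adjusted p = 0.0447). Fxyd6 was 2.13-fold higher with separate groups and was not called over genes (limma adjusted p = 0.067), but its limma p adjusted over probe sets was 0.0487. Fxyd7 was below the filter. With 1 mouse left out, Fxyd1 and Fxyd2 were called in 0 of 6 fits (adjusted p up to 0.141 and 0.12) and Atp1b3 in 1 of 6 (up to 0.0903).

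Of 13 tested chloride and bicarbonate transporters and their partners, 4 were higher and 0 lower (median 0.34). Slc9a3r1 (NHERF1), the scaffold that holds Cftr at the apical membrane, rose 1.77-fold, with signals of 3366, 2761 and 2808 in high fat mice, against 2108, 1420.1 and 1581 in control mice (limma adjusted p = 0.0246). Slc4a2, an anion exchanger, rose 1.63-fold, with signals of 1299.7, 1384 and 1201 in high fat mice, against 770 to 883 in control mice (limma adjusted p = 0.0181). Lrrc8a, an essential subunit of the volume-regulated anion channel, rose 1.51-fold (1905 ± 123 in high fat and 1262 ± 71 in control mice, SD, n = 3 each, limma adjusted p = 0.0207). Slc26a4 (pendrin), an apical chloride-bicarbonate exchanger, had the largest difference of the list, 4.46-fold, with signals of 261, 670.0 and 494 in high fat mice, against 198, 46.3 and 106 in control mice (limma adjusted p = 0.0452). Its signals varied widely within both groups. With 1 mouse left out, the highest adjusted p was 0.121 for Slc26a4, and none of the 4 stayed called in all 6 fits.

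The other lists held few or no calls. Of 9 epithelial potassium channels only Kcnj15 was called, 1.67-fold higher (1314 ± 133 in high fat and 788 ± 120 in control mice, SD, n = 3 each, limma adjusted p = 0.0273). Of 12 genes of beta-adrenergic and cAMP signalling, the pathway that opens Cftr and stimulates fluid clearance, only the adenylyl cyclase Adcy6 was called, 1.44-fold higher (1086 ± 66.8 in high fat and 753 ± 54.5 in control mice, SD, n = 3 each, limma adjusted p = 0.0405). With 1 mouse left out, Kcnj15 was called in 2 of 6 fits (adjusted p up to 0.0866) and Adcy6 in 0 of 6 (up to 0.127). Among other aquaporins 4 were tested and 0 called. Aqp11 had the smallest p, with signals of 123 to 154 in high fat mice and 199.6 to 243 in control mice (log2 -0.72, limma adjusted p = 0.0847), and Aqp5, the water channel of alveolar type I cells, had a log2 difference of 0.16 (limma adjusted p = 0.489). Of 4 other cation-chloride cotransporters and of 6 sodium-hydrogen exchangers and carbonic anhydrases 0 were called. The smallest p among them belonged to Slc12a5 (log2 -0.47, limma adjusted p = 0.214) and Slc12a4 (log2 0.31, limma adjusted p = 0.287), and to Car2 (log2 -0.28, limma adjusted p = 0.239) and Slc9a8 (log2 0.38, limma adjusted p = 0.37).

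**Figure D5:**
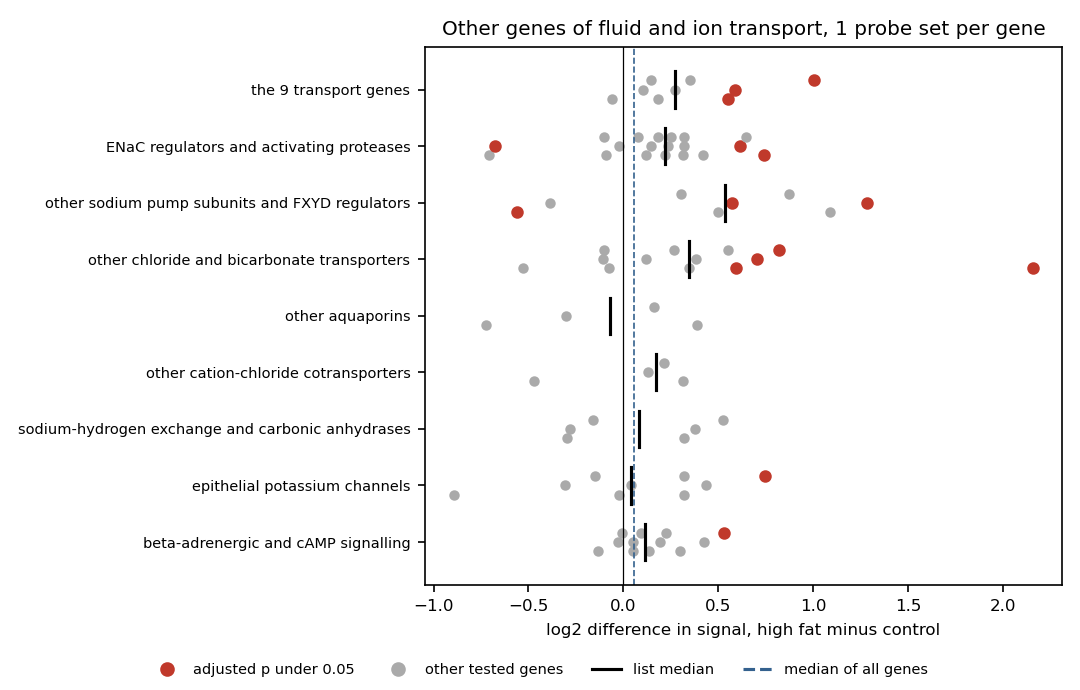
Log2 difference in signal, high fat minus control, of each tested gene (a point) in the 9 transport genes and 8 lists of related genes; red points have an adjusted p under 0.05 over all genes, black bars are list medians and the dashed line is the median of all genes, 0.06. The largest difference is that of Slc26a4, and the called genes that lie below 0 are Nr3c1 and Atp1b3.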

How the data were processed

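Total RNA of mouse lung was hybridised to arrays of an Affymetrix mouse probe set design, 1 per mouse. The deposited intensity values are MAS5 signals on a linear scale, per the submitters' processing notes, which give no version or settings; their trimmed mean (without 2 percent at each end) was 500 on every array, so the deposited values had been scaled. Precision is limited by 3 arrays per group, and no detection calls were used. Of 45101 probe sets, 34958 carried 1 symbol, 932 several and 9211 none, and 64 controls were not tested.

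Values below 1 were set to 1 before log2. Probe sets with a mean log2 signal of 6.14 or more (the 40th percentile) were tested with limma 3.58.1 in R 4.3.3 (lmFit and eBayes with an intensity trend, two-sided, diet as the only term, 4 residual degrees of freedom), which left 27022 probe sets and 12689 genes. Adjustment was by Benjamini-Hochberg over probe sets, or over genes by their brightest probe set. Intervals are 95% intervals from that fit. The script was tested on simulated data. Nothing says whether the mice were housed or processed apart, so p-values measure the spread between these samples.

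The genes, the lists of related genes and the cell type markers were chosen with earlier results of these data known. From each list of related genes, called genes are named, up to 6 by smallest p, or the 2 of smallest p where none was called. Sgk1 and Fxyd6, which pass only with adjustment over probe sets, are also named. Actb, Hprt and Tbp are references, and Gapdh, which had no probe set of its own symbol alone, was read only through control probe sets. Exact permutation tests used all 20 relabelings. Alternatives were other scalings, an offset of 32, other filters (none, and the 60th percentile), variance models, array weights, a replicate block, averaging over a gene's probe sets and leaving out mice. Centring on the pan-epithelial markers was added after the data were seen.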

Additional observations from a re-analysis of the deposited data

How the results depend on the processing

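Of the alternatives tried, none called a transport probe set lower in high fat mice. Called transport probe sets numbered 3 in the main analysis, 7 with median centring, 1 without an intensity trend, 1 without both mice numbered 1 and 1 with centring on the pan-epithelial markers, and 0 to 3 with 1 mouse left out. Called transport genes numbered 3, and 0 without an intensity trend, without both mice numbered 1, with averaging over a gene's probe sets and with centring on the pan-epithelial markers, and 0 to 1 with 1 mouse left out; the cause was not tested. Over all probe sets 3486 were called, against 5448 with median centring, 1343 without both mice numbered 1 and 7162 with centring on the pan-epithelial markers, and 724 to 3298 with 1 mouse left out. Over all genes 857 were called, against 3208, 343 and 1593 in the same settings, 136 without an intensity trend, 515 with that averaging and 170 to 570 with 1 mouse left out. Higher signals in high fat mice made up 35.9 percent of probe sets called and 67.4 percent of genes called, 80.1 and 95.4 percent with median centring, and 5.29 and 10.5 percent with centring on the pan-epithelial markers.

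The sign of small differences depended on the setting. Scnn1a (-0.06) was at 0.22 with median centring and at -0.16 to 0.045 with 1 mouse left out. The Aqp4 sets 1425382_a_at (0.01) and 1434449_at (0.10) were at -0.12 and -0.10 with array weights, -0.40 and -0.56 without both mice numbered 1, -0.31 and -0.22 with centring on the pan-epithelial markers, and -0.48 to 0.43 and -0.54 to 0.72 with 1 mouse left out. Nedd4l sets 1441305_at (0.13) and 1457374_at (0.00) ran from -0.011 to 0.24 and from -0.29 to 0.26 with 1 mouse left out. Centring on the pan-epithelial markers also turned Scnn1b to -0.15, Atp1b1 sets 1418453_a_at and 1451152_a_at to -0.11 and -0.15, Aqp1 to -0.054, Slc12a2 set 1448780_at to -0.060, and Nedd4l sets 1423269_a_at, 1441305_at and 1457374_at to -0.18, -0.20 and -0.32. The 3′ to 5′ ratios kept their sign in every fit with 1 mouse left out, with differences of 0.126 to 0.177 for Gapdh and 0.16 to 0.281 for b-Actin.

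With the replicate number as a block, 3 transport probe sets and 2 transport genes were called, with 3052 of all probe sets and 737 genes. Deviations from the group means of the mice with the same number correlated at 0.17, 0.11 and -0.04, against -0.21 to 0.13 for mice with different numbers. With 3 mice per group these values do not settle whether mice of the same number were paired. Dim probe sets limit the values of Nedd4l, Aqp4 and the second Cftr set.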
